A study of Mus musculus with 8 samples.

Results

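Undifferentiated spermatogonia are the germ cells at the base of the seminiferous tubule that include the stem cells of sperm production. A set of 9 genes that mark or maintain them was followed across the testis arrays of the series: Gfra1, Ret, Etv5, Bcl6b, Id4, Zbtb16, Sall4, Pou5f1 and Nanos2. Members were taken as all non-control probes carrying one of these gene names, which gave 11 probes of 55681 on the array, with 3 for Sall4 and 1 for each other gene. All 9 genes were among the 26588 tested. RNA came from whole testes of C57BL/6 mice, either wild type littermates (Ip6k1+/+) or littermates lacking Ip6k1 on both alleles (Ip6k1-/-), born to heterozygous parents. Mice were taken at 17 or 26 days postpartum (dpp), which gave 4 groups of 2 arrays, described as biological replicates in the series design. The loss of Ip6k1, which encodes an inositol hexakisphosphate kinase, is carried by all cells of the animal as far as the labels say, and which part of the gene was removed is not given in the sources used here. The labels do not say whether an array held RNA of 1 animal or of pooled animals.

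Stem cell maintenance in the mouse testis depends on GDNF, a growth factor secreted by Sertoli cells and other somatic cells. GDNF binds the co-receptor GFRA1 on undifferentiated spermatogonia, and the complex signals through the receptor tyrosine kinase RET. This raises the transcription regulators ETV5, BCL6B and ID4, while ZBTB16 (also called PLZF), SALL4 and the RNA-binding protein NANOS2 hold the cells in the undifferentiated state. These cells are few at any age, and between the ages sampled here the first wave of germ cells passes from meiosis to spermatids, so each type makes up a changing share of the tissue.

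Promoter windows are shown as context for the members. RefSeq windows were listed for 5 of the 9 members (7 windows on GRCm38.p6), and Ret, Zbtb16, Sall4 and Bcl6b were not matched. The 250 bases before the annotated start are printed 5′ to 3′ for Gfra1 and Nanos2, which were lower at 26 dpp than at 17 dpp in every wild type array, and for Id4, which was higher; the other 4 windows are described by their counts. Capitals mark the GC box (GGGCGG or CCGCCC), the CCAAT box (CCAAT or ATTGG) and the TATA box (TATAAA or TTTATA), searched on both strands.
Gfra1 (chr19:58455399-58455648, minus strand): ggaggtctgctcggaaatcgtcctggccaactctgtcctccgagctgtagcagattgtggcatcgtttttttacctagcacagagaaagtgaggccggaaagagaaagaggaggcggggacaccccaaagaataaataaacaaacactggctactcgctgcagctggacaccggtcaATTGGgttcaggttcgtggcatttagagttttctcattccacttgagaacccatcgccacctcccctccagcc
Nanos2 (chr7:18987274-18987523, plus strand): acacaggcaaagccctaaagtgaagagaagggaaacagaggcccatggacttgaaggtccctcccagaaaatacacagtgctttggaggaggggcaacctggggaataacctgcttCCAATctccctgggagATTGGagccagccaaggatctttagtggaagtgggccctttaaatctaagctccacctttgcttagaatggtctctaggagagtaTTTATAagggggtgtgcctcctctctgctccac
Id4 (chr13:48260866-48261115, plus strand): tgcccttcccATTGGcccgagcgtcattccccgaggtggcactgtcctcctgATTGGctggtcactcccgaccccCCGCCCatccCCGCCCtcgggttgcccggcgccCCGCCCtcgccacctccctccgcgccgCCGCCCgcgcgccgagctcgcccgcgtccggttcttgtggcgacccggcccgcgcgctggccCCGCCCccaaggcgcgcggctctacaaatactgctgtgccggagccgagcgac
The Id4 window held 5 GC boxes and 2 CCAAT boxes and had a GC content of 75.6%. That of Nanos2 held 2 CCAAT boxes and 1 TATA box with a GC content of 50.8%, and that of Gfra1 held 1 CCAAT box with a GC content of 52.4%. Of the windows not printed, those of Etv5, which was lower at 26 dpp in wild type, held 3 GC boxes and 3 CCAAT boxes (71.2% GC) and 0 GC boxes and 1 CCAAT box (62% GC). Those of Pou5f1, also lower, held 1 GC box and 1 CCAAT box (62% GC) and 0 GC boxes and 1 CCAAT box (45.6% GC). GC boxes and a high GC content thus occurred in windows of genes of either course. Of 32851 windows of the same length in the table, 32.7% held a GC box, 33.8% a CCAAT box and 12.4% a TATA box. The median GC content was 52.4%. These are matches of letters only.

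Values are log2 signals relative to the array's 75th percentile, so a value of 0 is a probe as bright as that percentile, and levels of different probes cannot be compared. Between 58.9% and 64.7% of probes were well above background on an array, the scanner software's call that a spot is clearly brighter than its surroundings. Across genes, which are not independent, the second knockout array at 26 dpp gave Pearson correlations of 0.917 to 0.948 against 17 dpp arrays, of 0.838 and 0.873 against wild type at 26 dpp and of 0.863 against its own replicate. It thus stands apart from its group, and the results that rest on it are also given without it. The targeted gene Ip6k1 read 2.38 to 2.92 on the wild type arrays and 1.495 to 1.67 on the knockout arrays. By limma with Benjamini-Hochberg adjustment, its knockout difference was −0.81 at 17 dpp and −1.38 at 26 dpp. It was called at neither age (adjusted p = 0.523 at 26 dpp) nor in the average (adjusted p = 0.225). A member not called between genotypes in this fit is therefore not shown to be unchanged. Sertoli cell markers were well above background in 9 or 10 of 10 on every array. Markers of the epididymis, the duct attached to the testis, summed to 25.3 and 103 (in units of the 75th percentile) in wild type at 17 dpp and to 0.0413 to 0.384 on the other arrays. All arrays lay on 1 slide, with age set by slide row and genotype by columns, so that group and slide position cannot be told apart.

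**Figure D1:**
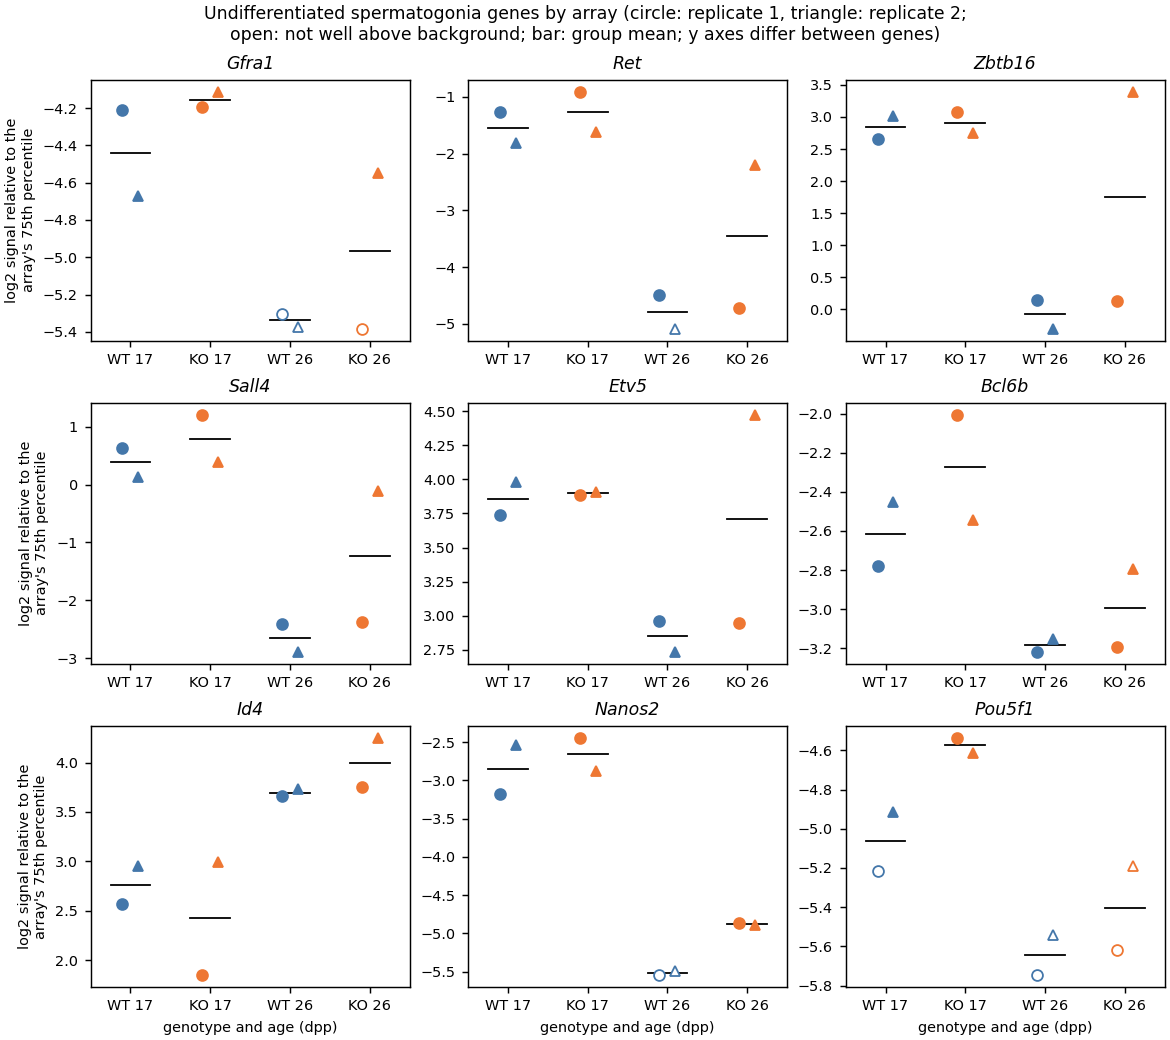
Log2 signal of the probe used for each of the 9 genes (y axis, relative to the array's 75th percentile) on each array, by genotype and age in dpp (WT, wild type; KO, knockout). Circles are replicate 1, triangles replicate 2, open symbols arrays where the probe was not well above background, and bars group means of 2 arrays. For Ret, Zbtb16, Sall4 and Etv5 the second knockout array at 26 dpp lies far above the first, and for Nanos2 the pair coincides. For Gfra1 the gap of 0.83 equals the median absolute gap over all genes.

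The first comparison asks how these genes behave as the wild type testis matures from 17 to 26 dpp. Ret, Sall4 and Nanos2 fell, Id4 was the single member that was higher at 26 dpp, and the other 5 members were lower without passing the test. By limma with Benjamini-Hochberg adjustment over all genes, 3 of 9 members were called lower and 0 higher, against 45.7% of all genes called, 27.2% lower and 18.5% higher. At an unadjusted p under 0.05 stood 5 of 9 members, beside 58.2% of all genes. The wild type groups did not overlap for any member: 8 lay lower at 26 dpp and 1 higher, where 57.3% and 31.1% of all genes did. Gfra1 and Pou5f1, among the 8, entered the fit only through groups of 17 dpp, where they were high. The share of members called is thus near that of all genes. The median difference over the members was −1.01, and that over all genes was −0.51. In whole testis RNA, fewer cells of a type and less RNA per cell cannot be told apart.

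Gfra1, the co-receptor that binds GDNF, had a dim probe (mm9 chr19:58311604-58311663, minus strand) that was well above background on 5 of 8 arrays. Signals at 17 dpp were −4.21 and −4.67 for wild type, −4.20 and −4.11 for knockout. At 26 dpp they were −5.30 and −5.37 for wild type, −5.38 and −4.55 for knockout. All arrays of 17 dpp lay above the wild type arrays of 26 dpp, where the probe was not well above background. Gfra1 entered the fit only through the groups of 17 dpp, its highest, so the filter favoured a lower level at 26 dpp. With the background as the limit, the wild type mean of Gfra1 was 1.82-fold lower at 26 dpp (means −4.44 and −5.34, limma adjusted p = 0.0745). This did not pass, and the 95% interval of the log2 difference ran from −1.74 to −0.05. Other settings with all groups complete gave differences of −0.968 to −0.202.

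Ret, the signalling receptor of the same complex (mm9 chr6:118101791-118101850, minus strand), showed a wide range over the arrays. Wild type arrays of 17 dpp stood at −1.26 and −1.82, knockout arrays at −0.91 and −1.61. Those of 26 dpp stood at −4.50 and −5.09 for wild type and at −4.71 and −2.20 for knockout. The arrays of 17 dpp were high, 3 arrays of 26 dpp were low, and the second knockout array of 26 dpp lay between them. In wild type Ret fell by 3.25 on the log2 scale (SE 0.81, adjusted p = 0.0262), with 1 of 2 arrays at 26 dpp well above background.

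Etv5, an ETS family transcription factor that responds to GDNF and is also expressed in Sertoli cells (mm9 chr16:22381387-22381446, minus strand), was bright on every array. The 17 dpp levels were 3.74 and 3.98 (wild type) against 3.89 and 3.91 (knockout). The 26 dpp levels were 2.96 and 2.73 (wild type) against 2.95 and 4.47 (knockout), the last being the highest of all arrays. The wild type difference of −1.01 (SE 0.50, 95% interval −2.22 to 0.20) did not pass (adjusted p = 0.13).

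Bcl6b, a zinc finger repressor that responds to GDNF (mm9 chr11:70037864-70037923, minus strand), spanned −3.22 to −2.01. Signals at 17 dpp were −2.78 and −2.45 for wild type, −2.01 and −2.54 for knockout. At 26 dpp they were −3.22 and −3.15 for wild type, −3.19 and −2.80 for knockout. Both wild type arrays and the first knockout array of 26 dpp were the lowest. The difference between wild type ages was −0.57 (SE 0.30, 95% interval −1.30 to 0.17, adjusted p = 0.153), close to the median of all genes.

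Id4, an inhibitor of DNA binding that marks stem cells and is expressed in other testis cells as well (mm9 chr13:48358668-48358727, plus strand), ran the other way. Wild type arrays of 17 dpp stood at 2.57 and 2.95, knockout arrays at 1.85 and 2.9975. Those of 26 dpp stood at 3.66 and 3.73 for wild type and at 3.75 and 4.25 for knockout. Every array of 26 dpp lay above every array of 17 dpp, the second knockout array included. The wild type difference of 0.93 (SE 0.43, 95% interval −0.12 to 1.98) did not pass (adjusted p = 0.113).

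Zbtb16, the zinc finger factor PLZF that keeps spermatogonia undifferentiated and is also expressed in other tissues (mm9 chr9:48462419-48462478, minus strand), showed the widest gap between the knockout arrays of 26 dpp among the members. The 17 dpp levels were 2.66 and 3.01 (wild type) against 3.08 and 2.74 (knockout). The 26 dpp levels were 0.15 and −0.30 (wild type) against 0.13 and 3.39 (knockout). The wild type ages differed by −2.91 (SE 0.98, 95% interval −5.30 to −0.52), which just missed the threshold (adjusted p = 0.0521). With either knockout array of 26 dpp left out, the same difference had an adjusted p of 0.000689; those arrays enter the wild type comparison only through the shared estimate of spread.

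Sall4, a zinc finger factor of germ cells, was read by 3 probes that did not behave alike. The first 30 bases of each 60-base probe, as deposited, are shown to tell them apart.
A_51_P349087 (mm9 chr2:168574333-168574392): tgcgaccacccaagtattgccaggtcttaa
A_51_P145260 (mm9 chr2:168578172-168578231): gcctccctccaacatttatccgagcacagc
A_55_P2173546 (mm9 chr2:168580437-168580496): attcaccaacgccgtcatgttacagcagca
All 3 lie on the minus strand. The brightest by its mean over all arrays, A_51_P349087, gave the following values. Signals at 17 dpp were 0.63 and 0.14 for wild type, 1.21 and 0.39 for knockout. At 26 dpp they were −2.41 and −2.89 for wild type, −2.37 and −0.10 for knockout. By this probe Sall4 fell by 3.03 in wild type (SE 0.75, adjusted p = 0.0257). The probe A_51_P145260, well above background on all 8 arrays, moved less. For wild type it gave −0.92 and −1.23 at the earlier age and −1.4992 and −1.48 at the later age, and for knockout −1.24 and −0.67, then −1.74 and −1.33. Its difference of −0.41 (SE 0.31, adjusted p = 0.294 in the fit over all kept probes) did not pass, so the fall of Sall4 rests on the brightest probe. The probe A_55_P2173546 was well above background on 1 array, the first knockout array of 17 dpp, and was not tested.

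**Figure D2:**
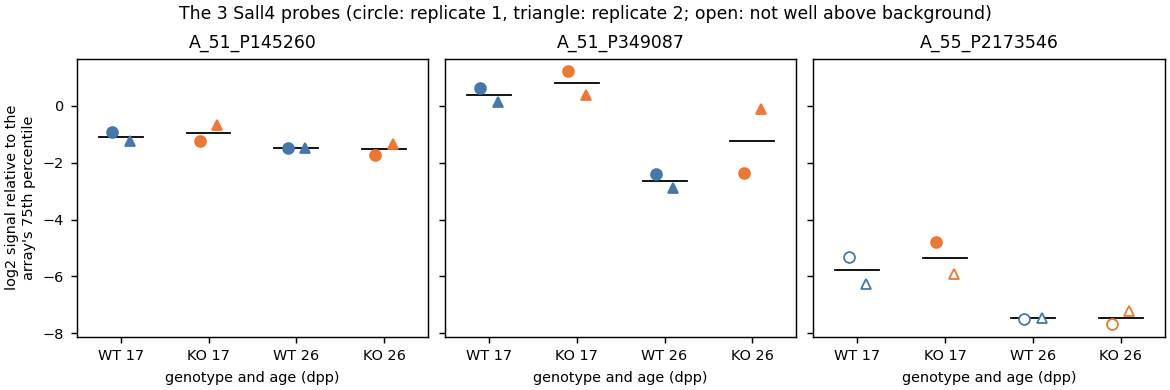
Log2 signal of the 3 Sall4 probes (panels, shared y axis relative to the array's 75th percentile) by genotype and age in dpp, with symbols as for the members and bars for group means of 2 arrays. The probe A_51_P349087 spans 1.21 to −2.89 over the arrays, while A_51_P145260 spans −0.67 to −1.74.

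Pou5f1, the pluripotency factor OCT4 that persists in undifferentiated spermatogonia (mm9 chr17:35647280-35647340, plus strand), was near the limit of detection. Wild type arrays of 17 dpp stood at −5.22 and −4.91, knockout arrays at −4.54 and −4.61. Those of 26 dpp stood at −5.75 and −5.54 for wild type and at −5.62 and −5.19 for knockout. It was well above background on 3 of 8 arrays, all of 17 dpp, and entered the fit only through the knockout group of that age, its highest. Taking the background as the limit, the wild type mean of Pou5f1 was 1.19-fold lower at 26 dpp (means −5.06 and −5.64, limma adjusted p = 0.113). This did not pass, and the 95% interval of the log2 difference ran from −1.23 to 0.07. Only 1 of 2 wild type arrays at 17 dpp was well above background. Other settings with all groups complete gave differences of −0.651 to −0.055.

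Nanos2, an RNA-binding protein that keeps male germ cells from differentiating (mm9 chr7:19574205-19574264, plus strand), had the smallest adjusted p among the members. The 17 dpp levels were −3.18 and −2.54 (wild type) against −2.44 and −2.87 (knockout). The 26 dpp levels were −5.54 and −5.49 (wild type) against −4.87 and −4.89 (knockout). The probe was well above background on both knockout arrays of 26 dpp but on neither wild type array of that age. With the background as the limit, the wild type mean of Nanos2 was 5.48-fold lower at 26 dpp (means −2.86 and −5.51, limma adjusted p = 0.00636). The 95% interval of the log2 difference ran from −3.405 to −1.91. Over other settings with all groups complete, the difference ran from −2.73 to −0.985.

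**Figure D3:**
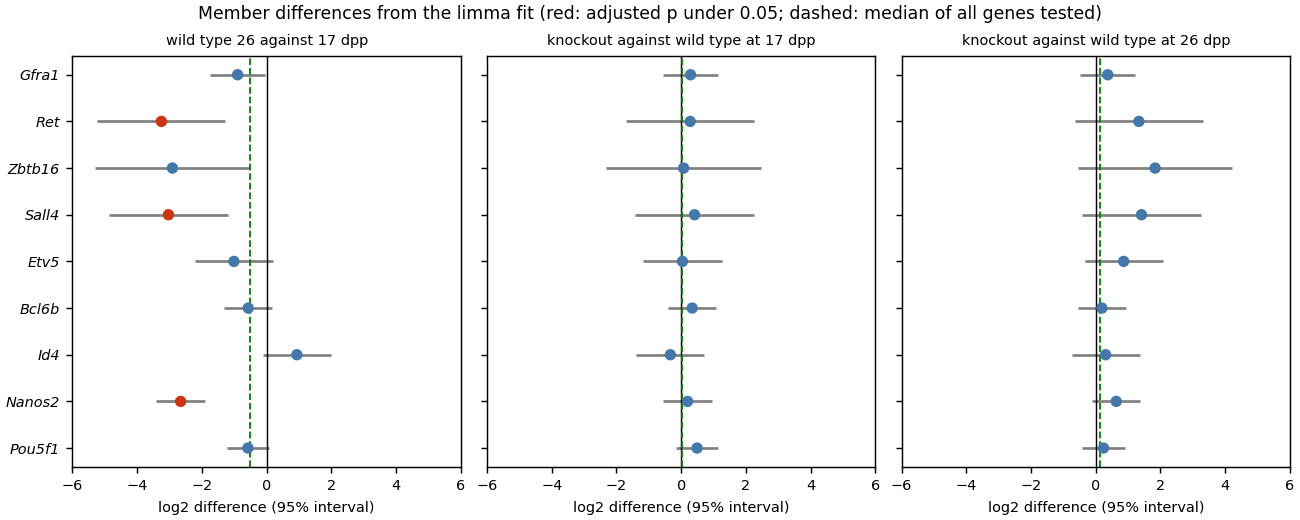
Log2 differences of the 9 genes with 95% intervals from the limma fit (x axis) for wild type at 26 against 17 dpp and for knockout against wild type at each age. Red points had an adjusted p under 0.05, blue points did not, and the dashed line is the median of all genes, −0.51, 0.03 and 0.12 from left to right. Red points occur in the age comparison only, at Ret, Sall4 and Nanos2.

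Because the median of all genes was itself −0.51 between the wild type ages (−0.59 to −0.28 over 7 scalings), the members were also set against it. Relative to that median Ret stood at −2.74, Sall4 at −2.52, Zbtb16 at −2.40, Nanos2 at −2.14 and Etv5 at −0.50. With normexp Nanos2 stood at −0.70 and −0.79 and Ret at −1.255 and −1.30. Id4 stood at 1.45. Bcl6b at −0.055 lay on the median of all genes. Scalings that shift all genes of an array alike cannot change these values, so normexp background correction with either of its scalings and quantile normalization of the processed signal are the settings that bear on them. Pou5f1 at −0.064 turned to 0.09 and 0.23 under the normexp settings, and Gfra1 at −0.38 moved to −0.041 and turned to 0.08. The other 7 members kept their side in all 3 of these settings.

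The calls in wild type depended on single arrays. Without the first or the second wild type array of 17 dpp, 1 and 0 members were called, and 0 without either wild type array of 26 dpp, in fits that called 0% to 2.78% of all genes. Without either knockout array of 26 dpp, 7 members were called lower (Gfra1, Ret, Zbtb16, Sall4, Etv5, Nanos2 and Pou5f1) against 45.6% of all genes, with 0 members higher against 24.7% (70.3% called in all). These members kept the direction they had with 8 arrays, and Gfra1 and Pou5f1 among them were tested only through their level at 17 dpp. Over the single arrays left out, the difference of Nanos2 ran from −2.98 to −2.34, that of Ret from −3.54 to −2.96 and that of Sall4 from −3.28 to −2.79.

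Markers of other cell types moved over the same interval. Spermatid markers, 10 of 10 of which were called higher, summed to 1.97 and 2.00 in wild type at 17 dpp and to 519 and 1462 at 26 dpp. Sertoli cell markers, 8 of 10 called lower, summed to 525 and 559 and then to 220 and 244. Of 8 pachytene spermatocyte markers 7 were called higher, with sums of 90 and 111 and then of 574 and 601. The part of these shifts in the members' values was not tested.

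Other genes of the stem cell niche and of undifferentiated spermatogonia, a list of 38 with 32 tested, gave 19 called lower and 0 higher in wild type, with a median of −1.75, where 27.2% of all genes were lower and 18.5% higher with a median of −0.51. Without either knockout array of 26 dpp 24 were called lower and 1 higher (45.6% and 24.7% of all genes), without either array of 17 dpp in knockout 12 lower (27% of all genes called in either direction), and without any single wild type array 0 to 2 (0% to 2.78%). Gdnf itself, the ligand of the receptor complex, read 1.06 and 0.94 at 17 dpp and −1.45 and −1.82 at 26 dpp and fell by 2.64 (SE 0.27, adjusted p = 0.0055). Mycn and Egr2, transcription regulators, fell by 2.48 and 2.49 (adjusted p = 0.00588 and 0.00806). Neurog3, a factor of progenitor spermatogonia, fell by 2.36 (adjusted p = 0.0108). Pou3f1, a POU domain factor that responds to GDNF, and Wnt5a, a secreted niche factor, fell by 2.18 and 2.60 (adjusted p = 0.0145 and 0.0159). T and Sox2 were not well above background on any array, and Pax7, Eomes, Egr3 and Spry4 were too dim to be tested.

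Genes of the next step, differentiating spermatogonia, were all 14 tested, with 10 called lower, 1 higher and a median of −1.94, beside the same shares of all genes (27.2% lower, 18.5% higher) and their median of −0.51. Without either knockout array of 26 dpp 12 were lower and 2 higher (45.6% and 24.7% of all genes), without either knockout array of 17 dpp 6 lower and 1 higher (27% called in all), and without any single wild type array 0 in either direction (0% to 2.78%). Kit, the receptor that marks differentiating spermatogonia, fell by 2.15 and its ligand gene Kitl by 2.20 (adjusted p = 0.017 and 0.00644). Dnmt3a, a DNA methyltransferase, Ccnd2, a cyclin, and Rarg, a retinoic acid receptor, fell by 2.44, 2.05 and 1.41 (adjusted p = 0.00916, 0.013 and 0.0158). Dmrtb1, which controls the entry into meiosis, rose by 4.06 (SE 0.52, adjusted p = 0.00728). Whether these lists differ from the 9 members was not tested.

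At 17 dpp the question was whether loss of Ip6k1 alters these genes before spermatids appear. No member passed: 0 of 9 in limma, and 0 of 9 at an unadjusted p under 0.05, where 0.094% of all genes were called (0.0903% lower, 0.00376% higher) and 1.44% had such a p. Knockout arrays lay above both wild type arrays for Gfra1 and below them for no member, where 16.9% and 11.7% of all genes did so. Pou5f1, at 0.49, also lay above, but it was tested only because of its level in this knockout group, so its difference is not counted. Those of the other 8 members ran from −0.34 for Id4 to 0.41 for Sall4, each with an adjusted p of 1, and 7 of them were above 0. The median over all genes was 0.03, and 14862 of 26588 genes were above 0. The intervals leave room for sizeable change in the more variable genes. For Ret the 95% interval ran from −1.70 to 2.25, for Zbtb16 from −2.31 to 2.46, and for Nanos2, among the tightest, from −0.55 to 0.94. The signs of Ret, Zbtb16, Etv5, Id4 and Nanos2 turned when the first wild type or the first knockout array of this age was left out, each at an adjusted p of 1. Beside these values, the epididymal markers of wild type at this age (6 tested members well above background on each wild type array, 0 of 8 on the knockout arrays, Lcn8 on no array) and 5 tested adipocyte markers (sums of 4.56 and 245 in wild type, 1.17 and 1.61 in knockout) had higher sums in wild type. Of the 6 epididymal markers 4 were called lower in knockout, and of the 5 adipocyte markers 0. Their part in the members' values was not tested.

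At 26 dpp the 9 members had higher means in knockout than in wild type, as did 15301 of 26588 genes, and none passed the test. Limma called 0 of 9 and 0 had an unadjusted p under 0.05, beside 0.00752% of all genes called and 2.42% at such a p. The median difference was 0.63, beside 0.12 over all genes. Set against that median of all genes, 9 of 9 members lay above it, and 8 of 9 after background correction by normexp. Both knockout arrays lay above both wild type arrays for Sall4, Id4 and Nanos2, where 17.8% of all genes did, and below them for 0 members, where 14.8% did. Zbtb16 differed by 1.83 (SE 0.98, 95% interval −0.55 to 4.22), Sall4 by 1.41 (SE 0.75, −0.42 to 3.24) and Ret by 1.33 (SE 0.81, −0.64 to 3.31), each with an adjusted p of 0.523. By the probe A_51_P145260 the Sall4 difference was −0.041 (adjusted p = 0.948). At this age that probe was the brighter of the tested Sall4 probes on both wild type arrays and on the first knockout array. Etv5 differed by 0.86 (SE 0.50, −0.35 to 2.07), Id4 by 0.31 (−0.74 to 1.36) and Bcl6b by 0.19 (−0.55 to 0.92). With wild type not well above background, folds were set against the background limit. By the means, Nanos2 was 1.35-fold and Gfra1 1.26-fold higher in knockout (limma adjusted p = 0.523 and 0.571). The 95% intervals of these log2 differences included 0 (−0.114 to 1.381 and −0.474 to 1.215). Before scaling, the Nanos2 probe gave 21.5 and 14.2 for knockout, beside 12.6 and 13.6 for wild type. Relative to the median of all genes, the Nanos2 difference of 0.51 fell to 0.052 and 0.124 under the normexp settings. With quantile normalization of the processed signal it was 0.61. For Gfra1, 1 of 2 knockout arrays was well above background. Pou5f1 was not well above background in either group.

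For all members but Nanos2 these differences rested on the second knockout array. Without it the median difference was 0.08 and 0 of 9 members were called (0.0376% of all genes, 0.0263% lower and 0.0113% higher). The first knockout array then differed from the wild type mean by −0.046 for Gfra1, 0.08 for Ret, 0.20 for Zbtb16, 0.28 for Sall4 and 0.10 for Etv5. It also differed by −0.01 for Bcl6b, 0.06 for Id4 and 0.03 for Pou5f1, and by 0.65 for Nanos2, each with an adjusted p of 1. Without the first array instead, Gfra1, Ret, Zbtb16, Sall4 and Etv5 were called higher, against 29.4% of all genes called higher and 46.7% called in all. In either fit the remaining array is taken to vary like the other groups.

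The members did not all separate the knockout arrays of 26 dpp in the same way. From the first to the second array Zbtb16 differed by 9.63-fold, Ret by 5.70-fold, Sall4 by 4.82-fold, Etv5 by 2.89-fold and Gfra1 by 1.78-fold. Id4 differed by 1.41-fold, Pou5f1 by 1.35-fold and Bcl6b by 1.32-fold, and Nanos2 by a ratio of 0.981. On the second array 7 of 9 members lay nearer the wild type mean of 17 dpp than that of 26 dpp, as did 60.9% of all genes. On the first array 0 of 9 did, beside 7.98% of all genes. The exceptions on the second array were Id4, which at 4.25 lay 1.49 above the wild type mean of 17 dpp, and Nanos2, which at −4.89 lay 2.04 below it. Zbtb16, Etv5 and Id4 were higher on this array than on any other, 3 of 9 members where 16% of all genes were. The median absolute difference between the pair was 0.83 over all genes.

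**Figure D4:**
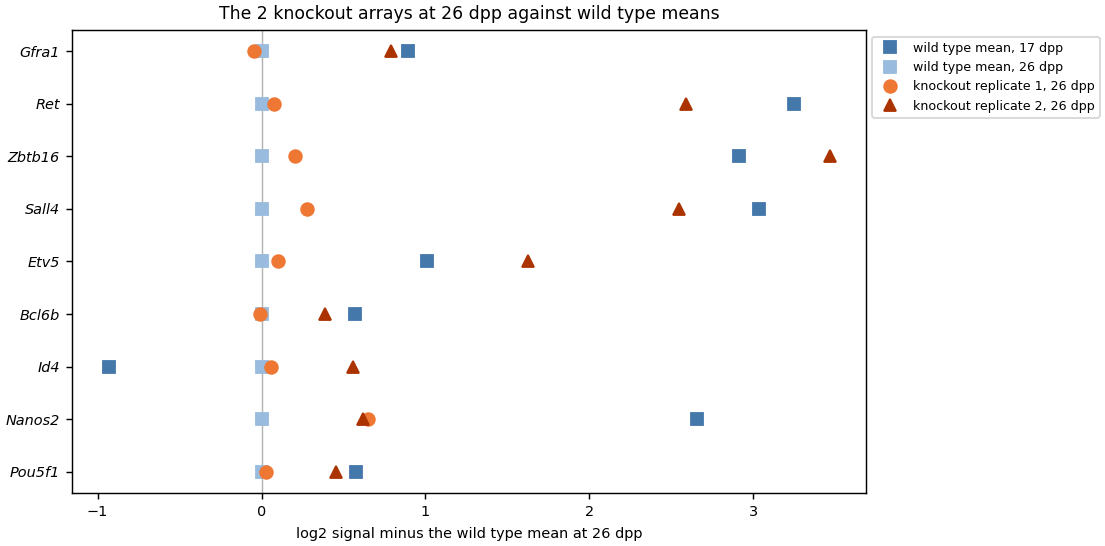
Log2 signal minus the wild type mean at 26 dpp (x axis) for each of the 9 genes, showing the wild type means of each age (squares) and both knockout arrays of 26 dpp (circle, replicate 1; triangle, replicate 2). Replicate 1 lies within 0.28 of 0 for all genes but Nanos2 (0.65), while replicate 2 approaches the 17 dpp square for Ret, Sall4, Gfra1, Bcl6b and Pou5f1 and lies beyond it for Zbtb16 and Etv5.

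Marker lists on the second knockout array were as follows. Its 10 spermatid markers summed to 2.20, in the range of the arrays of 17 dpp (1.97 to 2.23), where the first knockout array reached 778. Its 8 pachytene markers summed to 484, beside 531 on the first array and 64.2 to 142 at 17 dpp. Their median log2 level was 3.83, beside 4.91 on the first array. Sertoli cell markers summed to 531, beside 237 on the first array and 510 to 559 at 17 dpp, although their median log2 level of 2.17 was below the 2.30 to 2.47 of the other arrays of 26 dpp. Of 7 Leydig cell markers on the array 4 were well above background, with a sum of 7.11 beside 10.9 to 17.9 elsewhere. Macrophage markers summed to 7.45 to 8.32 in knockout and 12.8 to 14.5 in wild type at this age, and peritubular myoid markers to 42.8 to 65.7 and 45.8 to 45.9. The median log2 level of the peritubular myoid markers was 0.24 on the second knockout array, beside 2.32 to 2.43 on the other arrays of 26 dpp. The part of these shifts in the members' values was not tested.

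**Figure D5:**
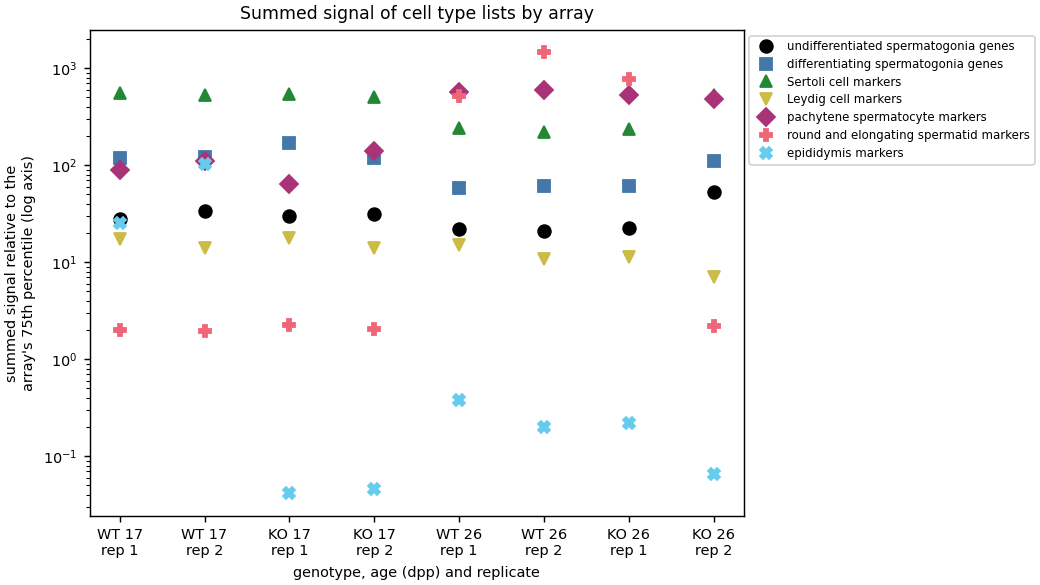
Summed signal of 7 gene lists on each array (y axis, log scale, in units of the array's 75th percentile), ordered by genotype, age and replicate. The 9 spermatogonia genes sum to 21.1 to 53.2, and on the second knockout array at 26 dpp the probes of Etv5, Id4 and Zbtb16 make up 51.8 of the 53.2, while the spermatid markers are at 2.20.

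Among the other stem cell and niche genes and those of differentiating spermatogonia, 0 of 32 and 0 of 14 were called between genotypes at 17 dpp (0.094% of all genes) and at 26 dpp (0.00752%). At 26 dpp these counts and the medians of 0.36 and 0.50 also rested on single arrays. Without the second knockout array 0 were called in both lists (0.0376% of all genes) and the medians were 0.006 and 0.08. Without the first, 13 of 32 were called higher and 2 lower, and 6 of 14 higher and 3 lower, in a fit that called 46.7% of all genes. Egr2 alone of both lists had an unadjusted p under 0.05 at 26 dpp, with a difference of 0.98 (adjusted p = 0.523) that was 0.57 without the second knockout array (adjusted p = 1) and 1.39 without the first (adjusted p = 0.00893).

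Averaged over both ages, the knockout effect was above 0 for 8 of 9 members, as it was for 15567 of 26588 genes. Pou5f1 is among the 8, but it was tested only because of its level in the younger knockout group, which enters this average. No member was called (0% of all genes were called, and 2.17% had an unadjusted p under 0.05, as did 0 members). Zbtb16 averaged 0.96 (SE 0.69), Sall4 0.91 (SE 0.53) and Ret 0.81 (SE 0.57), each with an adjusted p of 0.817. Without the second knockout array of 26 dpp these averages were 0.14, 0.34 and 0.18. By the probe A_51_P145260 the Sall4 average over all arrays was 0.041. No member had knockout arrays on the same side of wild type without overlap at both ages, which 2.99% of all genes had upward and 1.54% downward. Without the first knockout array of 26 dpp, Ret, Zbtb16, Sall4 and Etv5 were called in this average, in a fit that called 31.8% of all genes. The difference of the knockout effect between the ages was called for 0 of 9 members, with 0 at an unadjusted p under 0.05 (0% of all genes called, 1.9% at such a p), and stood at 1.76 for Zbtb16 (SE 1.38, adjusted p = 0.78). Without the second knockout array of 26 dpp it was 0.125 for Zbtb16, below 0.45 for Nanos2 and 0.39 for Id4, and −0.20 for Ret and −0.14 for Sall4 (adjusted p = 1 for each). Ret, Zbtb16, Sall4 and Etv5 were called for that difference too without the first knockout array of 26 dpp, in a fit that called 33.6% of all genes.

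The mean of the members' levels, each centred on its own mean over the arrays, was 0.49 to 0.82 on the arrays of 17 dpp. On those of 26 dpp it was −0.95 and −1.10 for wild type and −0.88 and 0.42 for knockout, so that the second knockout array lay below all arrays of the earlier age by this measure. The members' courses over the 8 arrays were largely parallel, as a description over arrays that share ages and the array that stands apart. The closest pair was Ret and Sall4 (Pearson r = 0.998), followed by Zbtb16 and Etv5 (0.972) and by the receptor pair Gfra1 and Ret (0.967). Id4 correlated below 0 with every other member, from −0.24 with Etv5 to −0.84 with Nanos2. Against the mean course of the other 8 members, Sall4 stood at 0.982, Ret at 0.978 and Nanos2 at 0.813. Among all other genes with a current symbol, Traf3 (0.9993), Aen (0.999), Sohlh1 and Cspg5 (0.9987 each) and Dusp6 (0.9986) followed the members' mean most closely. In wild type, Traf3 for example read 2.06 and 2.16 at the earlier age and 0.06 and −0.17 at the later one, where the knockout arrays read 0.14 and 1.95.

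Replicates of wild type had a median SD over the members of 0.27 at 17 dpp and 0.14 at 26 dpp, beside 0.15 over all genes at each age. In knockout the median SD was 0.30 at 17 dpp (0.19 over all genes) and 0.59 at 26 dpp, and the widest was that of Zbtb16 at 26 dpp, 2.31, beside a median of 0.59 over all genes at that age.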

How the data were processed

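Whole testis RNA of 8 samples was labelled with Cy3 and hybridised to 1-colour Agilent arrays. Per the submitters' processing notes, spots were read with Agilent Feature Extraction; the headers give version 11.5.1.1. The processed, mean and background signals are intensity values deposited per array without scaling between arrays. Spatial and multiplicative detrending were switched on for the processed signal, per the file headers. The value table that the authors deposited holds log2 values; set against the scanner files it followed log2 processed signal (r of 0.99991 to 0.99995 over probes) minus the 75th percentile, within 0.007 at the median, so scale and centring are settled; column medians were −3.84 to −3.59. Flags in the deposited scanner files, coded as other values, marked control, outlier, saturated and background spots. Probe positions are those of the files on mm9.

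Spots with an outlier flag, 103 to 200 on an array, were removed, and no spot was saturated (0 on every array). Spots of 1 probe were averaged, and log2 of the 75th percentile over non-control probes (416 to 628) was subtracted. A probe stayed in if 1 or more groups had it well above background on each of their arrays (37910), and 97 of these were dropped for a missing value, which left 37813. A gene was read from its brightest kept probe. Accessions named 27509 probes, 3549 carried a current symbol, and 24623 kept the file's name. Tests used limma 3.58.1 in R 4.3.3, 1 mean per group over 8 arrays (4 residual degrees of freedom, prior 2.09), two-sided, with Benjamini-Hochberg adjustment over 26588 genes and a threshold of 0.05. The precision is limited by the 2 arrays per group; p-values measure the spread between these arrays. Where a group was not well above background, the fold was set against the higher of the probe's own signal and the lowest signal well above background on each array. The fit was also run on simulated data with large planted changes and a capped spread, which checks the code and not the calls made here.

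The members and lists were chosen with earlier results of these data known. All members were named; from the other lists, up to 6 called genes with the smallest adjusted p in the wild type comparison, and the 5 genes most like the members' mean course. Genes named beyond this rule are singled out after seeing their values. Alternatives covered background correction, scaling, filters, variance model, samples, probe choice, the deposited table and each array left out.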

Additional observations from a re-analysis of the deposited data

How the results depend on the processing

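Of the 195 values per comparison that other settings gave for single members between the wild type ages, 158 kept direction and side of the threshold, 25 passed newly, 12 no longer passed and 0 turned sign. For knockout against wild type 188 of 195 kept both at 17 dpp and 187 of 195 at 26 dpp. The count of members called between wild type ages was 9 with array weights and 9 from the arrays of the compared groups only, in fits that called 76% and 71.4% of all genes, and 0 to 7 when single arrays were left out. Leaving out single arrays gave counts of 0 to 5 for knockout at 26 dpp, 0 to 4 for the average over ages and 0 to 4 for the difference between ages. With the replicate number as a block, 3 members were called between wild type ages (33.8% of all genes) and 0 in each knockout comparison (0% of all genes). The replicate numbers are not stated to pair animals. The correlation of deviations between groups ran from −0.40 to 0.11, and the block is no paired analysis.

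Signs turned with the Sall4 probe A_51_P145260 at 26 dpp (−0.041) and in the difference between ages (−0.164). They also turned for Id4 in the average with the array's median as scale (0.022). For Pou5f1 the sign turned in the difference between ages with normexp and the 75th percentile (0.035). With single arrays left out, the knockout effect at 17 dpp ran from −0.073 to 0.631 for Ret, −0.10 to 0.251 for Zbtb16, −0.081 to 0.16 for Etv5, −0.908 to 0.238 for Id4 and −0.123 to 0.518 for Nanos2. At 26 dpp it ran from −0.046 to 0.787 for Gfra1 and −0.01 to 0.388 for Bcl6b, and in the average from −0.301 to 0.272 for Id4. The difference between ages ran from −0.333 to 0.50 for Gfra1, −0.201 to 2.31 for Ret, −0.137 to 2.134 for Sall4 and −0.42 to 0.119 for Bcl6b. Except where the left-out array shows it, the cause was not tested. Signal limits Gfra1, Nanos2, Pou5f1 and Ret at 26 dpp, which lie at or near background there. The percentile over all spots, the Sall4 probe A_51_P145260 and the lists without each array were chosen after seeing the data.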

Other observations

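On the second knockout array at 26 dpp, other spermatogonial and niche genes also divided, chosen here after their values were seen. Lin28a, an RNA-binding protein of early germ cells, read 1.35 there, −0.77 on the first knockout array and 1.54 to 2.34 at 17 dpp. Sox3, a transcription factor of progenitor spermatogonia, read 3.47, beside 1.43 on the first array and 4.09 to 4.47 at 17 dpp. Stra8, which marks entry into meiosis, read 5.79, beside 3.81 and 5.42 to 6.13. Neurog3 read −1.68 on the second array, −1.08 on the first and 0.67 to 1.88 at 17 dpp. Gdnf read −0.95, beside −1.34 and 0.94 to 1.34, and Kitl read −3.37, beside −3.46 and −1.67 to −1.22. Lin28a, Sox3 and Stra8 thus had values near those of 17 dpp on an array on which Neurog3, Gdnf and Kitl, like Nanos2, had values near those of 26 dpp. These are values of 1 array, with no test.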
